A study of Mus musculus with 12 samples.

Results

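The cytosolic ribosomal protein genes are described here in hearts of vehicle-injected mice and of diabetic mice with and without angiotensin IV. They were chosen by name from the platform annotation of the array: every named probe set whose symbol begins with Rpl or Rps followed by a number, or with Rplp and a number, without the Rps6k kinases and symbols of pseudogenes. This gave 67 genes of the 19505 named genes on the array, each with 1 probe set. Of these, 33 encode canonical proteins of the large subunit and 21 canonical proteins of the small subunit. Another 12 are paralogs or retrocopies, such as the striated muscle paralog Rpl3l. The last, Rps19bp1, encodes a protein that binds Rps19 and is not itself part of the ribosome, so the name rule admits 1 gene that the label does not cover. Ribosomal protein genes that the annotation does not name under this rule are not analysed here. Rpl10, Rpl13a, Rplp2, Rps27 and Rps27a are among those absent, so the members do not cover the whole ribosome.

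The expression of 12 hearts was measured on single-colour arrays, 1 array per mouse and 4 mice per group. NC mice, the negative controls, were given vehicle by intraperitoneal injection on 5 days. DM mice were given streptozotocin, which kills pancreatic beta cells, by the same route on 5 days, and entered the study with a fasting blood glucose of 16.7 mM or more after 2 weeks. DM_AngIV mice were made diabetic as the DM mice were and then infused with the peptide angiotensin IV, which is cut from angiotensin II. The dose was 2.88 mg/kg/day, given from the end of week 8 to the end of week 24. All 3 groups were sampled at 6 months, and the sources used here do not give strain, sex or any batch. Whether NC and DM mice had a sham infusion is likewise not stated. The model is one of insulin loss by a toxin, so hyperglycaemia and the toxin were given together in both diabetic groups.

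The cytosolic ribosome is made of a small subunit, which decodes the mRNA, and a large subunit, which forms the peptide bond. Its proteins are produced in near equal numbers, and most of their mRNAs begin with a 5′ terminal oligopyrimidine (TOP) tract, a C followed by a run of pyrimidines, through which the kinase mTORC1 and the binding protein Larp1 govern their translation and stability. Insulin is a main activator of mTORC1 in heart muscle, where ribosome content follows growth and wasting. An array measures mRNA, not ribosome number or translation.

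Sequences around the annotated start show this shared element and its limits. Windows from 250 bases before to 50 bases after the start were taken from RefSeq (GRCm38.p6), which held 65 windows for 54 of the 67 genes. A tract is defined here as a C followed by at least 5 further C or T bases. It is read on the strand with the sequence of the mRNA and lies within 15 bases of the start. Such a tract was found in 29 of the 54 genes (53.7%) and in 25.5% of all 27025 genes with a window. A tract beginning exactly at the annotated first base was found in 12 of 54 (22.2%) and in 2.05% of all genes. The following windows of 30 bases, 15 before and 15 after the start, 5′ to 3′, belong to members whose values are described further on, with the longest tract in capitals.
Rps6, chr4:86857353-86857382, minus strand: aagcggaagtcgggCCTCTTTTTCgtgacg
Rps9, chr7:3704026-3704055, plus strand: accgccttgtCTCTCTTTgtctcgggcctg
Rps18, chr17:33955651-33955680, minus strand: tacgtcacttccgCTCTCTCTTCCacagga
Rps21, chr2:180257364-180257393, plus strand: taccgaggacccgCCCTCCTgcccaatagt
Rps24, chr14:24490663-24490692, plus strand: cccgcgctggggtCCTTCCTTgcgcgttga
Rpl15, chr14:18270972-18271001, minus strand: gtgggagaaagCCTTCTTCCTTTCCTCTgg
Rpl28, chr7:4792950-4792979, plus strand: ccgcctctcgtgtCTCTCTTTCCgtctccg
Rpl38, chr11:114668565-114668594, plus strand: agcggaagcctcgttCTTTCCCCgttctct
Rplp0, chr5:115559452-115559481, plus strand: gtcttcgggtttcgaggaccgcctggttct
Rps4x, chrX:102189377-102189406, minus strand: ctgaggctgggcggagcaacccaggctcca
Rpl3l, chr17:24727811-24727840, plus strand: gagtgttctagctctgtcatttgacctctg
The first 8 hold a tract and the last 3 do not, and Rps21 and Rps24 each have another annotated start whose window holds none. These windows are examples and do not reflect the share of 29 in 54. Rps28, Rpl5 and Rpl36a, also described further on, have windows without a tract. The tract lies at the start itself in Rps6, Rps18, Rpl15, Rpl28 and Rpl38, where the annotated first base is a C that begins a run of its own. A missing tract says only that these letters are not in the window, since annotated starts can lie some bases from the start that a tissue uses.

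The same windows were searched on both strands for 6 further motifs over their whole 300 bases. The motif of ETS factors, CCGGAAG, was present in 20 of 54 members (37.0%) and 9.93% of all genes with a window. The Sp1 motif GGGCGG was present in 30 members (55.6%) against 38.2%, and the YY1 motif AAGATGG, which can overlap a start codon, in 8 (14.8%) against 7.28%. The TATA box TATAAA was in 7 members against 15.7% of all genes, the E-box CACGTG in 4 (7.41%) against 8.09%, and GTAAACA, the motif of FoxO factors, one of which the study's title names, in 1 (1.85%) against 4.05%. These are counts of letters and not of bound sites.

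The tissue matched its label. All 14 cardiomyocyte markers were above background, and their mean lay between 11.06 and 11.24 on the log2 scale in every array, while 7 of 10 skeletal muscle markers and all 8 measured lymphocyte markers were never above background. Background is the 95th percentile of 246 reporter control probe sets, 4.96 on the log2 scale. Atrial tissue differed between the arrays. Myl7, the atrial myosin light chain, was above background in NC replicates 1 and 3 and DM replicates 1, 2 and 4 and in no DM_AngIV array. The mean of 13 measured macrophage and monocyte markers was 5.46 to 5.70 in NC, 5.55 to 6.54 in DM and 5.73 to 6.14 in DM_AngIV. Array medians lay between 4.12 and 4.19. In whole tissue, fewer cells of a type and less RNA per cell cannot be told apart.

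Ribosomal protein mRNAs were abundant, and their spread between mice differed from gene to gene. All 54 canonical members were above background on every array, with values between 6.39 and 10.94 on the log2 scale, as were 10 of the 12 paralogs and retrocopies and Rps19bp1. The other 2, Rpl39l, a paralog known from testis, and Rps23rg1, a retrocopy of Rps23, were below background on every array. The SD between mice of 1 group, pooled over the 3 groups, was 0.03 for Rpl37, 0.05 for Rps7 and 0.06 for Rpl41, all of them general components of the ribosome. It was 0.24 for Rps27l, 0.26 for Rplp0 and 0.26 for Rps23rg1. Rplp0, often used as a reference gene for normalisation, thus had the widest spread of the canonical members, and its 12 values spanned 1.10 on the log2 scale. Many members have processed pseudogenes, of which the reference gene table lists 312 under ribosomal protein symbols, and probes can bind transcripts of near-identical copies. Values of pairs such as Rpl37 and Rpl37rt or Rpl32 and Rpl32l are therefore uncertain as to their source, as are those of Rps27rt.

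**Figure D1:**
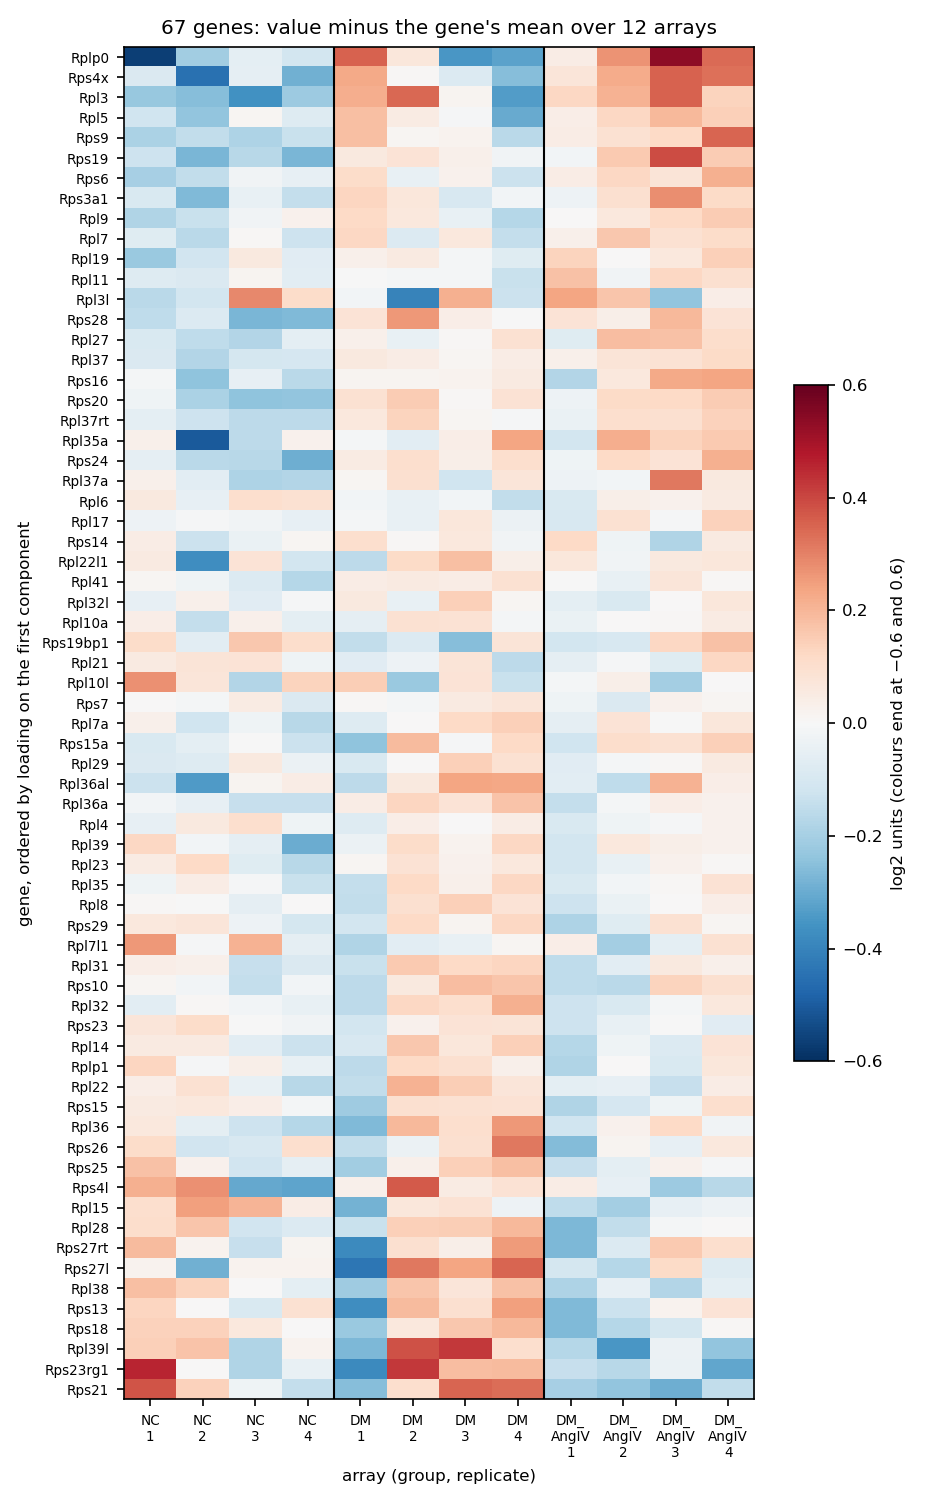
Each row is 1 of the 67 genes and each column 1 array, grouped as NC, DM and DM_AngIV, and the colour gives the value minus the gene's own mean over the 12 arrays in log2 units. Rows are ordered by their loading on the first principal component, so that Rplp0, Rps4x and Rpl3 stand at the top and Rps21 and Rps23rg1 at the bottom, with opposite colours in DM replicate 1 and in the DM_AngIV arrays.

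The members did not move as 1 block. Relative to each gene's mean over all arrays, the median of the 67 members lay at 0.020, −0.050, −0.045 and −0.064 on the log2 scale in NC replicates 1 to 4, at −0.054, 0.069, 0.061 and 0.076 in DM replicates 1 to 4, and at −0.071, −0.014, 0.037 and 0.068 in DM_AngIV replicates 1 to 4. DM replicates 2 to 4 lay above every NC array, DM replicate 1 lay within the NC arrays, and the DM_AngIV arrays spread over nearly the whole span. In step with this, 52, 55 and 45 of the 67 members were above their own mean in DM replicates 2, 3 and 4 but 27 in DM replicate 1, and the 4 DM_AngIV arrays had 17, 30, 44 and 57. The same median over all 19505 genes lay between −0.013 and 0.018 in the 12 arrays.

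**Figure D2:**
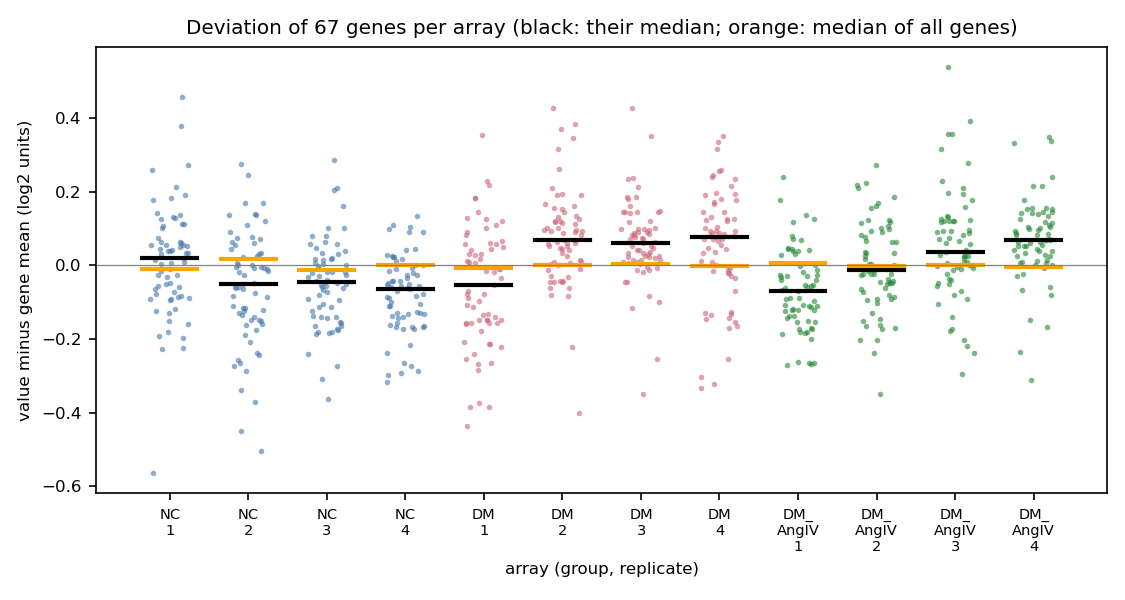
Points give the deviation of each of the 67 genes from its own mean over the 12 arrays, in log2 units, for each array on the horizontal axis, coloured by group. Black bars, the medians of the members, run from −0.071 to 0.076, while orange bars, the medians of all genes, stay between −0.013 and 0.018.

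A principal component analysis of the members, given as a description, split them into genes that varied in opposite directions. The first component held 41.7% of their variance and the second 26.0%. On the first, 42 of the 67 members had positive loadings, led by Rps21 (0.29), Rps23rg1 (0.27), Rpl39l (0.25) and Rps18 (0.18), and the other 25 had negative ones, led by Rplp0 (−0.37), Rps4x (−0.26), Rpl3 (−0.22), Rpl5 (−0.17) and Rps9 (−0.16). Rps23rg1 and Rpl39l were below background on every array, so their loadings describe signal at that level. The array scores were 1.02, 0.76, 0.03 and 0.16 in NC and −0.69, −0.83, −0.76 and −0.65 in DM_AngIV. DM replicates 2 to 4 scored 0.46, 0.68 and 1.02, and DM replicate 1 scored −1.20. The NC and DM_AngIV arrays did not overlap on this component, while the DM arrays fell on both sides of the DM_AngIV arrays. On the second component, 60 of the members had negative loadings, and DM_AngIV replicate 1 and DM replicate 1 (0.51 and 0.35) lay with the NC arrays (0.11 to 0.80).

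**Figure D3:**
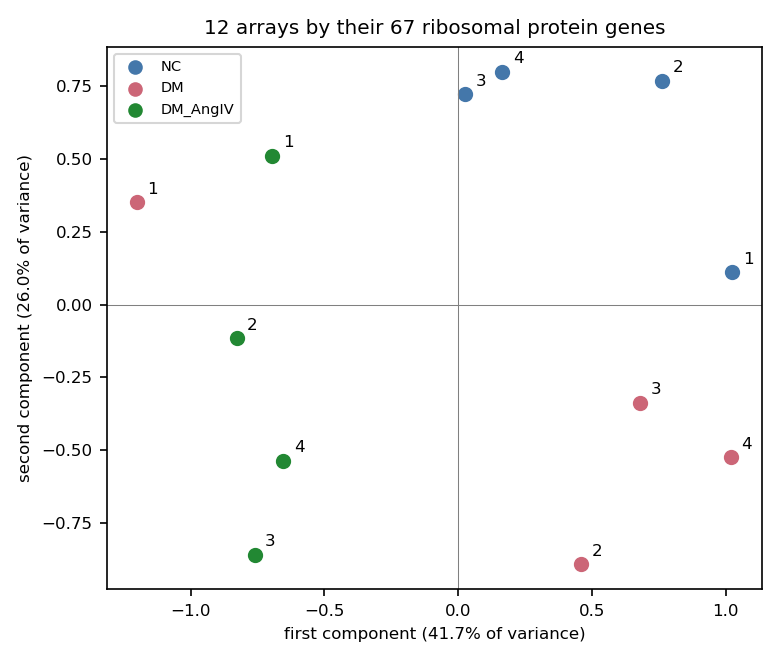
Each point is 1 array placed by its scores on the first (horizontal) and second (vertical) principal component of the 67 genes, in log2 units, coloured by group and numbered by replicate. The 4 DM_AngIV arrays lie between −0.83 and −0.65 on the first component, and DM replicate 1 at −1.20 stands apart from the other DM arrays.

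Diabetes alone, the comparison of DM with NC, left no member past the threshold, yet most members had slightly higher values. Of the 67 genes, 53 had a positive log2 fold change (79.1%), against 49.8% of all genes and 49.4% of the 9802 genes above background on at least 1 array. Their median was 0.085, against −0.001 for all genes tested and −0.002 for those above background. None was called by limma at a Benjamini-Hochberg adjusted p under 0.05 over all 19505 genes, a threshold that 0.0154% of genes passed (0.0306% of those above background), and the smallest adjusted p of a member was 0.381 (Rps28). At an unadjusted p under 0.05 there were 5 members, all higher in DM (7.46%). Over all genes this share was 8.95%, made of 4.69% higher and 4.26% lower, and it was 10.8% among genes above background. The groups did not overlap for 10 members (14.9%), all of them higher in DM. Over all genes the share without overlap was 4.54%, made of 2.45% higher and 2.09% lower, and it was 5.99% among genes above background. The medians of the canonical large and small subunit genes were 0.085 and 0.087, a description with no test of the difference. The 95% intervals of 64 of the 67 members lay within −0.5 and 0.5 on the log2 scale. So did those of 14505 of the 19505 genes and of 7602 of the 9802 above background.

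Of the 5 members with the largest positive values in DM, 4 encode proteins of the small subunit. Rps28, a protein of the small subunit head near the mRNA exit, was at 8.71, 8.78, 8.58 and 8.59 in NC and at 8.94, 9.12, 8.90 and 8.86 in DM. All 4 DM arrays lay above the NC arrays, with a difference of 0.29 ± 0.10 (SE, n = 4 each; limma adjusted p = 0.381). Rps20, which also lies in the head, had 8.92 ± 0.10 in NC and 9.17 ± 0.06 in DM (SD, n = 4 each), without overlap and with a difference of 0.26 (limma adjusted p = 0.438). Rps24 and Rps19, both needed to mature the RNA of the small subunit and both mutated in Diamond-Blackfan anaemia, had differences of 0.24 and 0.25 (limma adjusted p = 0.470 and 0.491), again without overlap. None of these 4 differences passed the threshold, and each was larger than the SD between mice of either group.

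Rpl3, which sits close to the peptidyl transferase centre of the large subunit, had the largest difference but a wide spread in DM. It was at 8.23, 8.20, 8.10 and 8.24 in NC and at 8.68, 8.81, 8.48 and 8.13 in DM, a difference of 0.33 ± 0.13 (SE; limma adjusted p = 0.477). The first 3 DM replicates lay above all NC arrays and replicate 4 below 3 of them. Macrophage marker means in the same DM arrays were 6.54, 6.00, 5.91 and 5.55, and their part in the Rpl3 values was not tested.

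The largest negative values in DM belonged to genes outside the canonical pattern, with 1 exception. Rpl15, a large subunit protein, had 10.11 ± 0.09 in NC and 9.92 ± 0.17 in DM (limma adjusted p = 0.647). Rps19bp1 (−0.18), Rpl7l1 (−0.17), a paralog of Rpl7 that acts in ribosome assembly, Rpl3l (−0.11) and Rpl10l (−0.11), a retrocopy known from testis, had limma adjusted p between 0.679 and 0.882. None of the 5 separated the groups.

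Treatment of diabetic mice, compared as DM_AngIV against DM, gave differences in both directions that did not pass the threshold. Of the 67 members 28 had a positive value (41.8%), against 49.8% of all genes and 56.5% of genes above background. Their median was −0.027, against −0.001 for all genes and 0.025 for those above background. Called were 0 members and 0 genes in all (0%), with a smallest adjusted p of 0.629 among the members. At an unadjusted p under 0.05 there were 2 members higher and 2 lower (5.97%), and 1 of the lower ones, Rpl39l, was below background on every array. The share was 7.48% of all genes, made of 3.98% higher and 3.5% lower, and 8.61% of genes above background, so the members' share was no larger than the background. The groups did not overlap for 1 member, lower in DM_AngIV, against 5.01% of all genes, made of 2.81% higher and 2.2% lower, and 6.3% of genes above background. That 1 was Rpl36a, a large subunit protein at the tRNA exit site, lower in DM_AngIV at 8.57 ± 0.08 against 8.70 ± 0.06 in DM (SD, n = 4 each; limma adjusted p = 0.780).

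Rplp0, the base of the acidic stalk that recruits elongation factors, had the largest positive value after treatment. It was at 9.50, 9.21, 8.79 and 8.82 in DM and at 9.19, 9.41, 9.68 and 9.48 in DM_AngIV, a difference of 0.36 ± 0.16 (SE; limma adjusted p = 0.660). DM replicate 1 lay above 3 of the 4 treated mice, so the groups overlapped. Rps4x, the X-linked small subunit protein, had a difference of 0.27 (limma adjusted p = 0.666), and Rpl5, which carries 5S RNA into the large subunit, 0.15 (0.786).

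Rps21, a small subunit protein, had the largest negative value of the members above background. It was at 9.38, 9.73, 9.98 and 9.96 in DM and at 9.43, 9.39, 9.33 and 9.48 in DM_AngIV, a difference of −0.35 ± 0.14 (SE; limma adjusted p = 0.629). DM replicate 1 was again the array that lay with the treated mice. The paralog Rps4l followed at −0.23 (limma adjusted p = 0.739), then Rpl28 and Rps18 at −0.20 and −0.18 (limma adjusted p = 0.718 and 0.735) and the paralog Rps27l at −0.18. Without DM replicate 1, 10 members had an unadjusted p under 0.05 in place of 4. The number was 2 without DM replicate 2, 0 without DM replicate 3 and 1 without DM replicate 4 or DM_AngIV replicates 2, 3 or 4, so these counts rest on single arrays.

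Treated diabetic mice against controls, the comparison of DM_AngIV with NC, gave the largest differences, with 0 members called where 198 genes in all (1.02%, and 1.8% of genes above background) were. The smallest adjusted p-values of the members were 0.0906 for Rps19, 0.0921 for Rps4x and 0.0988 for Rpl3, the 3 members under 0.1 (4.48%). That level was reached by 2.61% of all genes and 4.43% of genes above background, so the members' share was close to the latter. Of the 67 members, 38 had a positive value (56.7%), against 48.5% of all genes and 53.1% of those above background. Their median was 0.021, against −0.007 for all genes and 0.017 for those above background, and this small median had the opposite sign, −0.024, after quantile normalization of the deposited values. At an unadjusted p under 0.05 there were 13 members higher and 2 lower (22.4%). That was above the 14.6% of all genes (8.11% higher and 6.53% lower) but close to the 21.0% of the 9802 genes above background on at least 1 array. The groups did not overlap for 15 members, 13 higher and 2 lower, against 9.83% of all genes (5.63% higher and 4.2% lower) and 16.0% of those above background. By subunit, the members with an unadjusted p under 0.05 were 8 higher and 1 lower of 21 small subunit genes, 4 higher and 1 lower of 33 large subunit genes, and 1 higher of 12 paralogs. Over all genes of each subunit the order was turned, with medians of 0.020 for the small and 0.059 for the large subunit and 12 of 21 and 21 of 33 positive. The difference between the subunits was not tested.

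**Figure D4:**
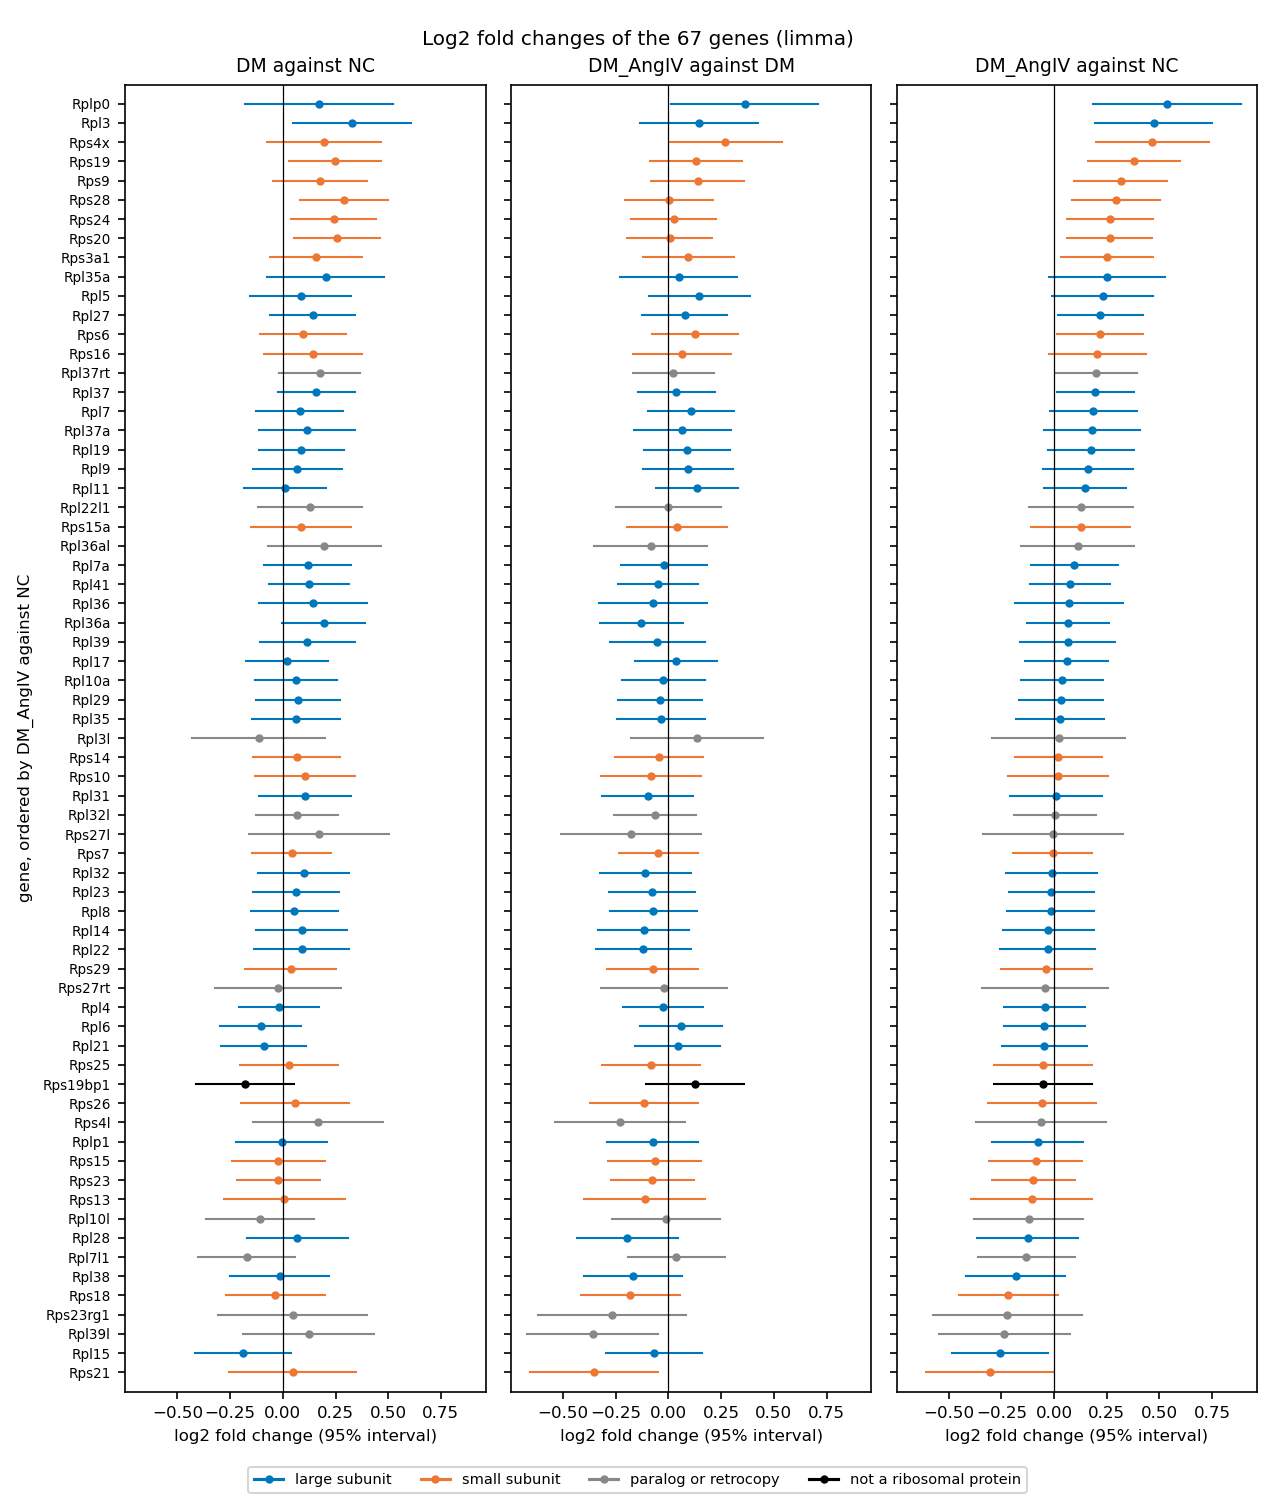
Points are log2 fold changes of the 67 genes from limma with 95% intervals, in 1 panel for each comparison and ordered in all panels by DM_AngIV against NC, with colours for the large subunit, the small subunit, paralogs and Rps19bp1. In the right panel Rplp0, Rpl3, Rps4x and Rps19 lie farthest to the right, and Rps21 and Rpl15 farthest to the left.

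Rpl3 was among the members with the largest positive values. In NC it lay between 8.10 and 8.24, and in DM_AngIV it was at 8.59, 8.67, 8.82 and 8.60, a difference of 0.47 ± 0.13 (SE; limma adjusted p = 0.0988) with an interval of 0.19 to 0.75. All treated mice were above all controls. Rps4x was at 8.26, 7.90, 8.29 and 8.06 in NC and at 8.42, 8.57, 8.70 and 8.68 in DM_AngIV, a difference of 0.47 (limma adjusted p = 0.0921), without overlap. Rps19 was at 7.66, 7.52, 7.62 and 7.52 in NC and at 7.77, 7.94, 8.18 and 7.94 in DM_AngIV, a difference of 0.38 (limma adjusted p = 0.0906), also without overlap. Rplp0 had the largest difference of the members, 0.53 ± 0.16 (SE; limma adjusted p = 0.135), from 8.91 ± 0.23 to 9.44 ± 0.20 (SD, n = 4 each), and the groups again did not overlap.

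Whether members passed depended on the fit. Rpl3, Rps4x and Rps19 passed in DM_AngIV against NC when dim genes, those under the overall median level, were left out, and with a variance prior that follows the mean level, where Rps24 passed as well. Rpl3 also passed in a fit on the 8 arrays of these groups, and in the fit without DM replicate 4 (limma adjusted p = 0.0462). Rps9, Rps28 and Rps24 had 0.32, 0.29 and 0.27 (limma adjusted p = 0.167, 0.173 and 0.205) without overlap. Rps6, the substrate of the S6 kinases downstream of mTORC1, lay between 9.69 and 9.87 in NC and between 9.93 and 10.10 in DM_AngIV, a difference of 0.22 (limma adjusted p = 0.307). Macrophage markers were also higher in DM_AngIV, with means of 5.73 to 6.14 against 5.46 to 5.70, and fibroblast markers lower, with 7 of 9 negative, a median of −0.28, 1 called lower and array means of 7.14 to 7.60 against 7.46 to 8.06. The part of either list in these differences was not tested. With atrial marker level added to the model, 0 members were called and the smallest adjusted p was 0.0543.

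The lower members were fewer. Rps21 was at 10.01, 9.77, 9.60 and 9.49 in NC and between 9.33 and 9.48 in DM_AngIV, a difference of −0.31 ± 0.14 (SE; limma adjusted p = 0.334). Rpl15 had 10.11 ± 0.09 in NC and 9.85 ± 0.08 in DM_AngIV (SD, n = 4 each), a difference of −0.26 (limma adjusted p = 0.277). In both, every treated mouse lay below every control. Rps18 had −0.22 and Rpl38, a large subunit protein with a known role in the translation of Hox mRNAs, −0.18, with limma adjusted p of 0.386 and 0.476. Over the 54 members with a window, the median difference was 0.086 for the 29 with a tract and 0.090 for the 25 without in DM against NC. It was −0.052 and 0.037 in DM_AngIV against DM, and 0.003 and 0.111 in DM_AngIV against NC. The difference between members with and without a tract was not tested. The 29 include Rpl39l and Rps23rg1, which were below background on every array. Both sets hold paralogs or retrocopies beside canonical genes.

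**Figure D5:**
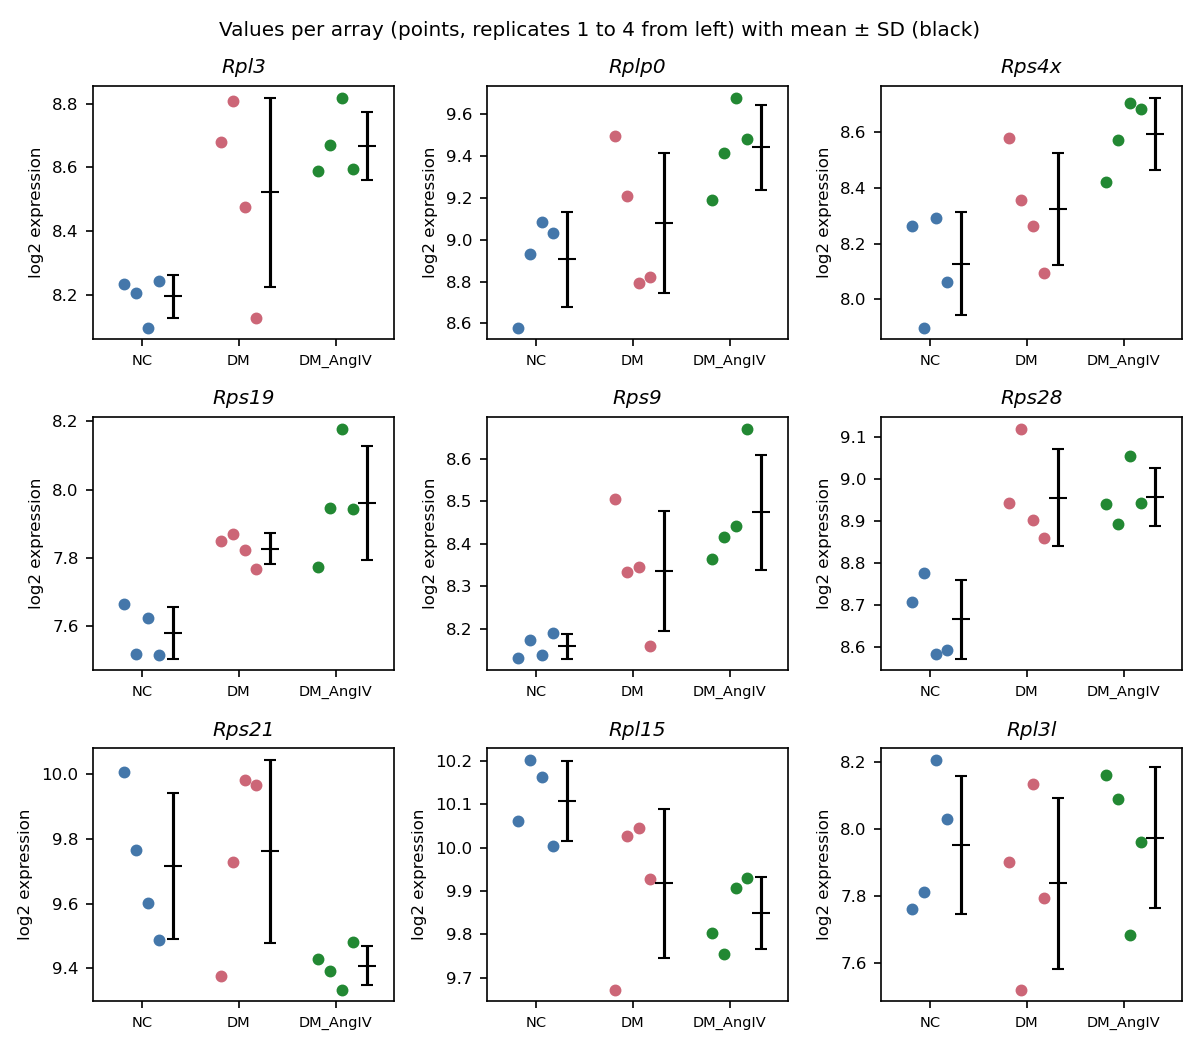
Each panel shows 1 gene, with the log2 expression of every array as a point (replicates 1 to 4 from left to right in each group) and the mean ± SD of the 4 arrays in black. In the panels of Rpl3, Rplp0, Rps4x, Rps19, Rps9 and Rps28 every DM_AngIV point lies above every NC point, and in those of Rps21 and Rpl15 below it. The DM points overlap with both other groups in all panels but those of Rps19 and Rps28. In these they lie above every NC point and overlap with DM_AngIV.

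The pair of Rpl3 and its striated muscle paralog Rpl3l was compared within each array. Rpl3l takes the place of Rpl3 in part of the ribosomes of heart and skeletal muscle. The value of Rpl3l lay between 7.76 and 8.21 in NC, 7.52 and 8.13 in DM and 7.68 and 8.16 in DM_AngIV, with full overlap. The difference of Rpl3l minus Rpl3 was −0.47, −0.39, 0.11 and −0.21 in NC, −0.78, −1.29, −0.34 and −0.33 in DM and −0.43, −0.58, −1.13 and −0.63 in DM_AngIV. It was lower in DM than in NC by a mean change of −0.44 (two-sided exact permutation test, p = 0.200, adjusted p = 0.300 over 3 comparisons) and in DM_AngIV than in NC by −0.45 (exact permutation p = 0.0571, adjusted 0.171). DM_AngIV and DM differed by −0.010 (exact permutation p = 1). With 4 arrays against 4, the smallest p this test can give is 0.0286. Measured against the median of the large subunit genes in place of Rpl3, the change in DM_AngIV against NC was 0.052. In that comparison the change thus rests on Rpl3 and not on Rpl3l. By the same measure it was −0.16 in DM against NC, where Rpl3l itself had −0.11, and 0.22 in DM_AngIV against DM.

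The other paralogs and retrocopies had no call in any comparison. Rpl22l1, the paralog of the RNA-binding protein Rpl22, had 0.13 in DM against NC and −0.001 in DM_AngIV against DM, while Rpl22 had 0.090 and −0.12. Rps27l, a paralog of Rps27 known as a target of p53, spanned 6.78 to 7.56 in DM and 6.93 to 7.24 in NC. Rpl36al, a retrocopy of Rpl36a with an intact protein, had 0.20 and −0.085 in the same comparisons, beside 0.19 and −0.13 for Rpl36a. Rpl39l, below background in all arrays, is given no fold of its own.

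Genes around the ribosome were examined through lists chosen by function. The ribosomal components that the name rule misses were measured for Rpsa, the laminin receptor protein of the small subunit, and Fau, which encodes Rps30. Rpsa was at 8.59, 8.61, 8.73 and 8.72 in NC, 8.78 to 8.96 in DM and 8.83 to 8.87 in DM_AngIV, so that both diabetic groups lay above the controls (differences of 0.17 and 0.19, limma adjusted p = 0.628 and 0.363). Fau had 0.11 and 0.018 in the same comparisons (0.817 and 0.960). Of 16 other measured mRNAs of the TOP class, such as elongation factors and subunits of eIF3, 0 were called in any comparison. In DM_AngIV against NC, 13 of the 16 were positive with a median of 0.20. There, 7 higher and 1 lower had an unadjusted p under 0.05, 8 of 16 in all. All 16 were above background, and the share was 14.6% of all genes and 21.0% of genes above background. Eif4b, a cofactor of the helicase eIF4A, had 0.46 and Eif3f 0.41 (limma adjusted p = 0.0813 and 0.0845).

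Of 25 measured genes of mTORC1 signalling, 3 were higher in DM_AngIV against NC past the threshold and 0 were lower. Among all genes 0.728% were higher past it, as were 130 of the 9802 genes above background. The median over the list was 0.087, against 0.017 for genes above background. At an unadjusted p under 0.05 (limma) there were 4 higher and 1 lower (20%), close to the 21.0% of genes above background. Sesn1, a sestrin that restrains mTORC1 when amino acids are short and a known FoxO target, rose from 8.34 ± 0.13 to 9.49 ± 0.24 (SD, n = 4 each; limma adjusted p = 0.00834). Eif4ebp1, which binds the cap-binding factor eIF4E until mTORC1 phosphorylates it, was at 7.32, 7.30, 7.25 and 7.27 in NC and at 7.75, 7.91, 8.14 and 8.49 in DM_AngIV and rose by 0.79 (limma adjusted p = 0.0396). Rragc, a Rag GTPase that brings mTORC1 to the lysosome, rose by 0.47 (limma adjusted p = 0.0358). In DM the values of these genes lay between those of the other groups on average, at 8.88, 7.74 and 7.33, and 0 genes of the list were called in DM against NC or in DM_AngIV against DM.

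The machinery that builds ribosomes showed no call. Of 35 measured assembly factors, 0 passed in any comparison, and their medians were −0.000 in DM against NC, 0.053 in DM_AngIV against DM and 0.11 in DM_AngIV against NC. Npm1, a nucleolar chaperone, had 0.42 in the last (limma adjusted p = 0.127), and Nop58, a core protein of box C/D snoRNPs, was not above background in DM_AngIV. Of 14 genes of RNA polymerase I, 0 passed. Znrd1, a subunit of that polymerase, was lower in all treated mice than in all controls, at 6.52 ± 0.19 against 7.11 ± 0.07 (SD, n = 4 each; limma adjusted p = 0.0554). Of 22 translation initiation factors and 11 genes of the eIF2 kinases and the stress response to them, 0 passed in any comparison, with medians in DM_AngIV against NC of 0.13 and 0.068. Eif4b was counted among the 22 in place of Eif4a2, which the match of gene symbols replaced, and was also counted among the mRNAs of the TOP class. Its 0.46 was the largest value of the initiation factors in DM_AngIV against NC.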

How the data were processed

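The deposited table holds log2 expression values per probe set, which the authors made with RMA (background correction, a common distribution for all arrays, 1 summary per probe set) per the submitters' processing notes. Its version, the annotation and the build were not given in the sources used here. The arrays give no read depth, so their number limits the precision. Of 29129 probe sets, 19572 had 1 gene symbol, 0 had several and 2634 gene probe sets had none. All 19572 matched GRCm38.p6 by gene ID. For 55 symbols with several probe sets, the one with the highest mean was used.

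The 3 groups were fitted in 1 model over 12 arrays with lmFit and eBayes (limma 3.58.1, R 4.3.3), two-sided, adjusted by Benjamini-Hochberg over 19505 genes. The comparisons share arrays, so they are not independent of each other. The exact permutation test used all 70 relabellings. The members, the gene lists and the tests were chosen with earlier results of these data known.

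Named members were the 5 largest positive and 5 largest negative values per comparison among members above background, a list of 23 paralogs and special members (18 measured), and the ends of the rankings by mean and by spread. For other lists the 2 smallest p per comparison and every called gene applied, and only part of these are given. Alternatives covered threshold, dim genes, arrays in the fit, replicate block, probe set rule, scaling, array weights, variance prior, atrial covariate and each array left out. Those without the arrays with Myl7 above background, and with canonical members alone, were added after seeing the data. Promoter sequences are from RefSeq. A comparison of protein sequences is not used here. The plots were made in Python 3.11.15 (matplotlib 3.10.9).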

Additional observations from a re-analysis of the deposited data

Results flagged for a closer look

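In groups of 4 arrays, 108 values (34 named genes, the median of the members and the difference of Rpl3l and Rpl3, in 3 groups) were examined for 1 array far from the others, and 6 were so. Chance alone gives about 1 in 20, and the number flagged was close to that share. DM replicate 1 stood low for the median deviation of the members, at −0.054 against 0.061 to 0.076 in the other 3 DM arrays, for Rpl28, at 10.61 against 10.89 to 10.94, and for Rps27l, at 6.78 against 7.45 to 7.56. NC replicate 2 was low for Rps27l, at 6.93 against 7.23 to 7.24. DM replicate 2 was high for Rps4l, at 6.23 against 5.89 to 5.95. DM_AngIV replicate 2 was low for Rpl22l1, at 6.24 against 6.32 to 6.34. DM replicate 1 also had the highest mean of macrophage markers, 6.54. Its mean of atrial markers was 7.17, below the 7.63 of DM replicate 2 and the 8.10 of NC replicate 1. The part of either list in the low values of DM replicate 1 was not tested.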

How the results depend on the processing

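Under every alternative that kept more than 1 array per group, 0 members were called in DM against NC (smallest adjusted p 0.147) and 0 in DM_AngIV against DM (0.254). Not all of these alternatives could change the count much. Each member has 1 probe set, so the probe set rules left the members' values as they were. Leaving out an array of the group not compared changed only the estimate of the spread. In DM_AngIV against NC the count of 0 became 3 without genes below the median of all genes, 4 with a variance prior that follows the mean level, 1 with only the 8 arrays of the 2 groups and 3 at an adjusted p under 0.1. With single arrays left out it was 0 to 1. The median log2 fold change of the members stayed between 0.065 and 0.124 in DM against NC, between −0.070 and −0.009 in DM_AngIV against DM and between −0.024 and 0.052 in DM_AngIV against NC. When arrays with Myl7 above background were left out, so that 1 DM array remained, 60, 25 and 38 members were positive in the 3 comparisons. The change of Rpl3l minus Rpl3 in DM_AngIV against NC ranged from −0.540 to −0.305 with single arrays left out, with an exact permutation p of 0.0286 without DM_AngIV replicate 1. Members with an unadjusted p under 0.05 numbered 3 to 7 in DM against NC and 8 to 17 in DM_AngIV against NC with single arrays left out. They were fewest, at 3, without NC replicate 4 or DM replicate 2, and at 8 without NC replicate 2. Same-numbered arrays of different groups had deviations that correlated between −0.098 and 0.171 over genes, so the numbers were not taken to pair the mice. With the replicate block, 0 members were called in each comparison, and 115 genes in place of 198 in DM_AngIV against NC. Of 2544 values of named genes under alternatives, 2532 kept their side of the threshold in use and 12 passed it. Among the 12 were Rpl3, Rps19 and Rps4x at an adjusted p under 0.1, where the threshold was moved and the values were unchanged.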
